A study of Homo sapiens with 8 samples.

Results

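The cytosolic ribosomal protein genes encode the structural proteins of the ribosome that translates nuclear mRNAs. A fixed list of 56 such genes, 36 of the large subunit (names in RPL) and 20 of the small subunit (names in RPS), was taken from the 19970 protein-coding genes that RefSeq places on chromosomes 1 to 22 and X. Each gene was examined over its RefSeq span with 1 kb on each side. The assay was ATAC-seq, in which a transposase cuts accessible DNA and peaks mark where the cuts gather.

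All cells were U2OS, a human osteosarcoma line, kept for 72 h under an siRNA, arrested by a double thymidine block and collected in early S phase, after a release of 3 h. The 4 conditions were compared in 8 libraries, 2 per condition. They were siOrc6 with H2O2, siGl3 with H2O2, siOrc6 untreated and siGl3 untreated, where siOrc6 is directed against Orc6, a subunit of the origin recognition complex, siGl3 is the control siRNA, and H2O2 was given at 5 mM for 30 min to produce oxidative damage. Whether libraries of the same condition derive from different cultures is not stated in the labels, and ATAC-seq of genomic DNA gives no check of the loss of Orc6 mRNA.

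Ribosomal protein genes are used in nearly every cell and need to yield their proteins in matched amounts, since each ribosome holds a single copy of most of them. Their promoters lie in CpG islands, transcription starts at a C inside a run of pyrimidines, and the mRNA that results carries a 5′ terminal oligopyrimidine (TOP) tract through which mTORC1 signalling controls its translation. Several of the proteins have a second role outside the ribosome: RPL5, RPL11, RPL23, RPL26 and RPS7 can bind MDM2, the ubiquitin ligase that limits p53. Inherited loss of a copy of RPS19, RPL5, RPL11, RPS24, RPL35A and others causes Diamond-Blackfan anaemia.

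Promoters of 8 of the genes are printed because the results below name these genes. RPS7 and RPL26 lay at a region called changed, and RPS9 and RPS18 had no peak. RPL3 was among the genes with the widest peaks, although its widest peak lay past the 3′ end and not over the printed promoter. RPL14, RPL32 and RPS15 were among the genes with the narrowest peaks. Each stretch runs 5′ to 3′ along the gene, from 150 bases before the annotated start to 20 bases from the start onward, and comes from RefSeq on GRCh38.p14. Capitals mark exact matches to CCGGAAG (the core bound by ETS factors) or GGGCGG (the core bound by SP1), read on either strand, and to a TOP-like start, meaning a C within 2 bases of the annotated start followed by at least 4 pyrimidines.
RPS7 (chr2:3575110-3575279, plus strand): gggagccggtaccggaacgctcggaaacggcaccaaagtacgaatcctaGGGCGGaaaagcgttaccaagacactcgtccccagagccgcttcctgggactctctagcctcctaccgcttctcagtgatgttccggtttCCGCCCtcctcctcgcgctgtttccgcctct
RPL26 (chr17:8383174-8383343, minus strand): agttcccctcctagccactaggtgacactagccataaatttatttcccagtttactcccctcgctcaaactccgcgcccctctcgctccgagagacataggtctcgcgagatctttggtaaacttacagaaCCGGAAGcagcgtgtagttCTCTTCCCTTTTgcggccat
RPS9 (chr19:54200708-54200877, plus strand): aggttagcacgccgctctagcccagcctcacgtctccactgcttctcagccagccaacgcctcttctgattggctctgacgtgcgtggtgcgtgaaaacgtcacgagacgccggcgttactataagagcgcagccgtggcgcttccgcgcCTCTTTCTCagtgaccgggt
RPS18 (chr6:33271925-33272094, plus strand): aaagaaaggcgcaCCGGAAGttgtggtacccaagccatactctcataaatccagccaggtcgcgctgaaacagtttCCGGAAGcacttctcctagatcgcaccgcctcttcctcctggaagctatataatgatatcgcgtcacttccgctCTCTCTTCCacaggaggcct
RPL3 (chr22:39319604-39319773, minus strand): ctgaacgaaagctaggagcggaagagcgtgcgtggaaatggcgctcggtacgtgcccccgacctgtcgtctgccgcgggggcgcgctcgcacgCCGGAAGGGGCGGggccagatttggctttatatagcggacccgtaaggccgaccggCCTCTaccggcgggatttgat
RPL14 (chr3:40457189-40457358, plus strand): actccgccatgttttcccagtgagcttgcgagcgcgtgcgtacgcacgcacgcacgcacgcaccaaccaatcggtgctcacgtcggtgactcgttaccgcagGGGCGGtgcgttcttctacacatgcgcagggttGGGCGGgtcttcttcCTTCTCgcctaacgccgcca
RPL32 (chr3:12841546-12841715, minus strand): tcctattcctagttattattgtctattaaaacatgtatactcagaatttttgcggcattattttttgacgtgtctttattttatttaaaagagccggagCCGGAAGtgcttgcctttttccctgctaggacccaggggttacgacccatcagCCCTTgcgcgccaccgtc
RPS15 (chr19:1438246-1438415, plus strand): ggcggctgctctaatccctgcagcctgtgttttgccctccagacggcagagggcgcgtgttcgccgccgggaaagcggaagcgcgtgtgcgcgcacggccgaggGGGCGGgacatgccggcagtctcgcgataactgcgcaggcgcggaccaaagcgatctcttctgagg

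In RPS18 the CCGGAAG core stood at 2 places before the start, while RPS9 held neither core in these bases and had only its TOP-like start in capitals. The RPL3 promoter carried CCGGAAG directly followed by GGGCGG. RPS7 and RPS15 held GGGCGG and no TOP-like start, RPL14 held GGGCGG at 2 places with a TOP-like start, and RPL26 and RPL32 held CCGGAAG with a TOP-like start. A match of letters is a description of the sequence and not evidence that a factor binds there.

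The condition lists held 97816 peaks for siOrc6 with H2O2, 103674 for siGl3 with H2O2, 109304 for siOrc6 untreated and 115292 for siGl3 untreated, with median widths of 468, 453, 485 and 471 bp in that order. Each list came from both libraries of its condition, so no spread between replicates and no test could be had, and every comparison below describes lists and not conditions. Read depth is unknown, since the files hold no read counts. Of the bone lineage genes, RUNX2, SP7, COL1A1, COL1A2, SPP1, BGLAP and SPARC had a peak within 1 kb of a gene end in all 4 lists and ALPL and IBSP had none there, while the leukocyte, hepatocyte and erythroid genes PTPRC, ALB and HBB had none and CD3E and EPCAM had one in every list.

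Peaks were present at 54 of the 56 ribosomal protein genes (96.4%) in all 4 lists. The remaining genes, RPS9 and RPS18, had a peak in none, and no gene had a peak in some lists and not in others. The same counts held when peaks had to lie within 1 kb of an annotated gene end. Of the 19914 other protein-coding genes, 13327 (66.9%) had a peak within 1 kb of an end in all 4 lists, 5537 in none and 1050 in some. RPS9, a small-subunit protein of the decoding region, lies at chr19:54200858-54207647 inside a stretch of 954 kb (chr19:54137751-55091912) in which no list held any peak and which spans 36 other protein-coding genes. RPS18, a small-subunit protein of the head, lies at chr6:33272075-33276511 inside a stretch of 4.54 Mb (chr6:28943732-33481283) that likewise held no peak in any list and spans 167 other protein-coding genes. Both genes thus shared their lack of peaks with all of their neighbours, and the lists held peaks on alternate sequences of the same chromosomes, from 7 to 11 peaks per list for chromosome 6 and 1 or 2 for chromosome 19. What removed peaks from these stretches was not tested, and the lack of a listed peak here gives no reading of accessibility at RPS9 or RPS18.

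The genes are short, with a median span of 5046 bp (1394 bp in RPS27 to 22944 bp in RPS24) against 24190 bp over all protein-coding genes, so the 1 kb flanks make up much of each window. They lie on 16 chromosomes, with 7 genes on chromosome 19, 6 each on chromosomes 3 and 17, and 5 on chromosome 11. In total 90 peaks fell in the windows in siOrc6 with H2O2, 81 in siGl3 with H2O2, 95 in siOrc6 untreated and 97 in siGl3 untreated. A single peak was the whole content of the window at 31, 34, 25 and 29 genes in those lists, and at most 5, 3, 5 and 5 peaks fell in one window. No pair of the genes shared its strongest peak.

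The strongest peak of each gene ranked high within its own list. Peaks were ranked by the signal that the authors' peak caller gave them, expressed as a percentile from 0 to 100 within the list, because signals are not stated to be scaled between lists. The median percentile over the 54 genes was 92.4 in siOrc6 with H2O2, 92.5 in siGl3 with H2O2, 93.8 in siOrc6 untreated and 93.2 in siGl3 untreated. For the strongest gene-end peaks of other protein-coding genes the medians were 89.8, 89.6, 89.4 and 88.3 in the same order. A percentile of at least 90 was reached at 33, 32, 38 and 33 of the 54 genes. Large-subunit genes had medians of 95.5, 94.9, 95.9 and 95.5 over 36 genes, and small-subunit genes 88.5, 88.8, 90.1 and 89.8 over 18 genes, so the large-subunit median was the higher in every list.

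**Figure D1:**
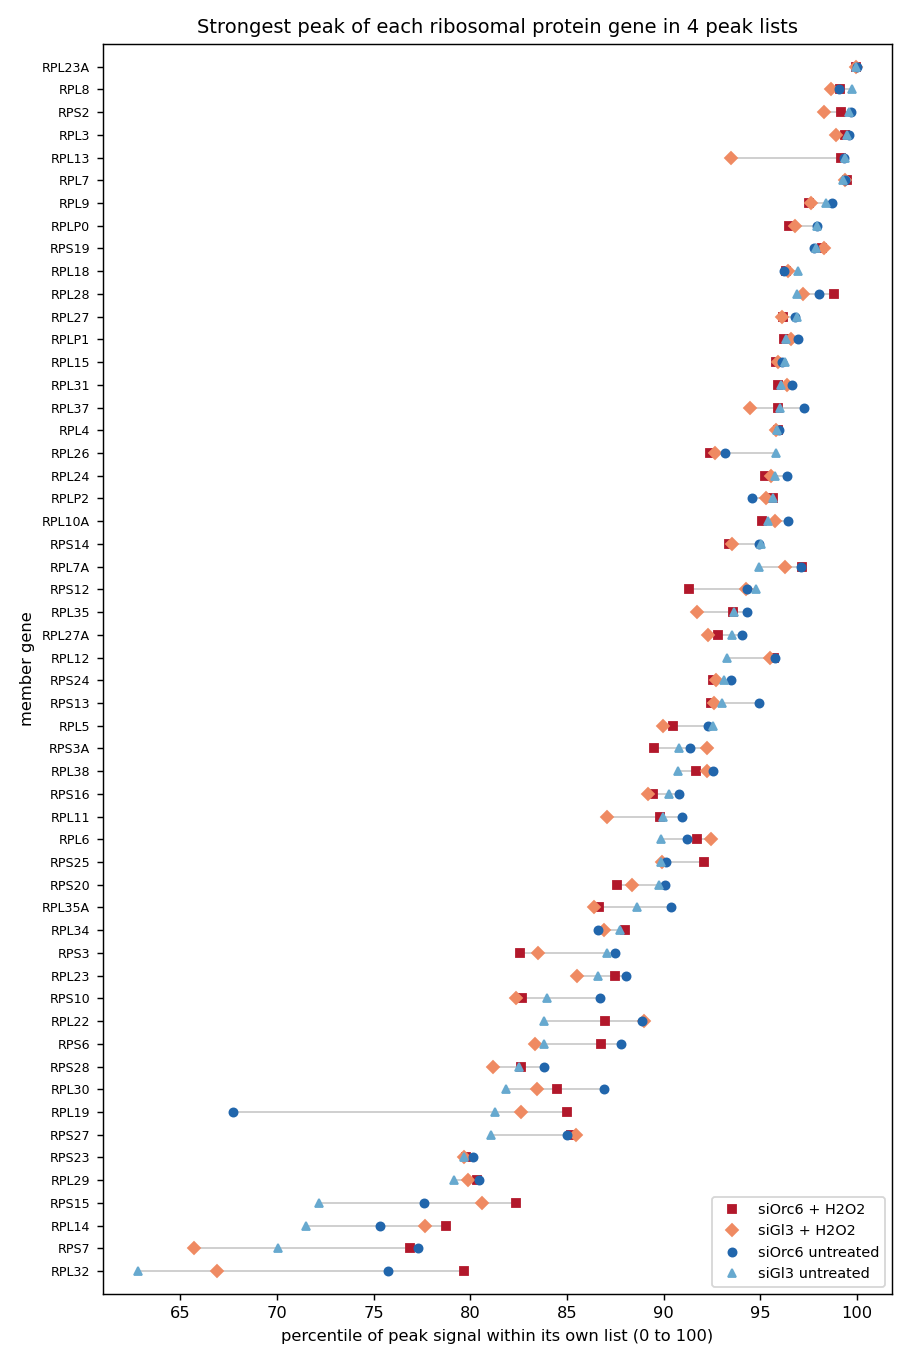
Percentile of the strongest peak (horizontal axis, 0 to 100 within each list) for the 54 ribosomal protein genes with a peak (1 row each, ordered by siGl3 untreated). Each symbol is 1 list, and most rows span less than 5 percentile points, with RPL19 the widest at 17.3 points.

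The percentile of a gene moved little between the lists. Its range over the 4 lists had a median of 2.21 points, and it was under 5 points at 46 of the 54 genes. RPL23A, a protein beside the exit of the nascent chain, had the smallest range, with percentiles of 99.98, 99.97, 99.99 and 99.98 in siOrc6 with H2O2, siGl3 with H2O2, siOrc6 untreated and siGl3 untreated. Those values belong to a peak at the 3′ end of RPL23A (chr17:28719985-28724359), which lay wholly past the gene in both H2O2 lists (chr17:28724639-28729341 in siOrc6) and overlapped its last bases in both untreated lists. The peak at the other end of RPL23A stood at 99.0, 99.2, 99.96 and 99.97. RPL8, RPS2 and RPL3 followed at the top of the untreated siGl3 list. RPL3, which reaches toward the peptidyl transferase centre, stood at 99.4, 98.9, 99.6 and 99.5, and RPS2, a small-subunit protein at the mRNA entry channel, at 99.2, 98.3, 99.7 and 99.6. RPL8, a large-subunit core protein, stood at 99.1, 98.7, 99.1 and 99.7. At RPL3 the strongest peak was not that of the promoter: it lay past the 3′ end (chr22:39308539-39312642 in siGl3 untreated), while the peak over the start stood at 97.0, 97.1, 97.4 and 97.1. At RPS2 the strongest peak likewise ran beyond the gene (chr16:1958746-1963197 in siGl3 untreated), and RPS2 has no start in the promoter table. The strongest peak lay wholly outside the gene at 3, 3, 2 and 2 genes of the lists: at RPL3 in all 4, RPL23A in both H2O2 lists, RPL38 in siOrc6 with H2O2, RPS2 in siGl3 with H2O2, RPL19 in siOrc6 untreated and RPL8 in siGl3 untreated.

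The lowest percentiles in untreated siGl3 belonged to RPL32, RPS7, RPL14 and RPS15. RPL32, a large-subunit protein, stood at 79.7 in siOrc6 with H2O2, 66.9 in siGl3 with H2O2, 75.7 in siOrc6 untreated and 62.8 in siGl3 untreated. RPS7, a small-subunit protein that can bind MDM2, stood at 76.9, 65.7, 77.3 and 70.0 in the same lists. In both genes, as in RPL14 and RPS15 below, the siOrc6 list was above the siGl3 list under either treatment. RPL14 stood at 78.8, 77.6, 75.3 and 71.5, and RPS15, a protein near the decoding site, at 82.3, 80.6, 77.6 and 72.2. RPL14, RPS15 and RPL32 were higher in the H2O2 list than in the untreated list under either siRNA, while RPS7 was lower. All were chosen as the lowest in untreated siGl3, which by itself favours higher values in the other lists.

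Peak widths ranged from 490 to 5438 bp, with a median of 1299 bp in siOrc6 with H2O2, 1185.5 bp in siGl3 with H2O2, 1417 bp in siOrc6 untreated and 1274.5 bp in siGl3 untreated. Other genes' strongest gene-end peaks had median widths of 1244, 1135, 1254 and 1122 bp. RPL23A had the widest peak in every list, at 4703, 4636, 5438 and 5149 bp, which was the peak past its 3′ end. The peak at the other end of RPL23A measured 1509, 1760, 4788 and 4642 bp. RPS2 had peaks of 4146, 3283, 4358 and 4452 bp, and the peak past the 3′ end of RPL3 measured 3857, 3601, 3988 and 4104 bp. RPL14 had the narrowest peak of untreated siGl3, at 726, 728, 706 and 490 bp. A gene's widest peak was in the siOrc6 untreated list at 31 genes, in siOrc6 with H2O2 at 12, in siGl3 untreated at 8 and in siGl3 with H2O2 at 3.

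**Figure D2:**
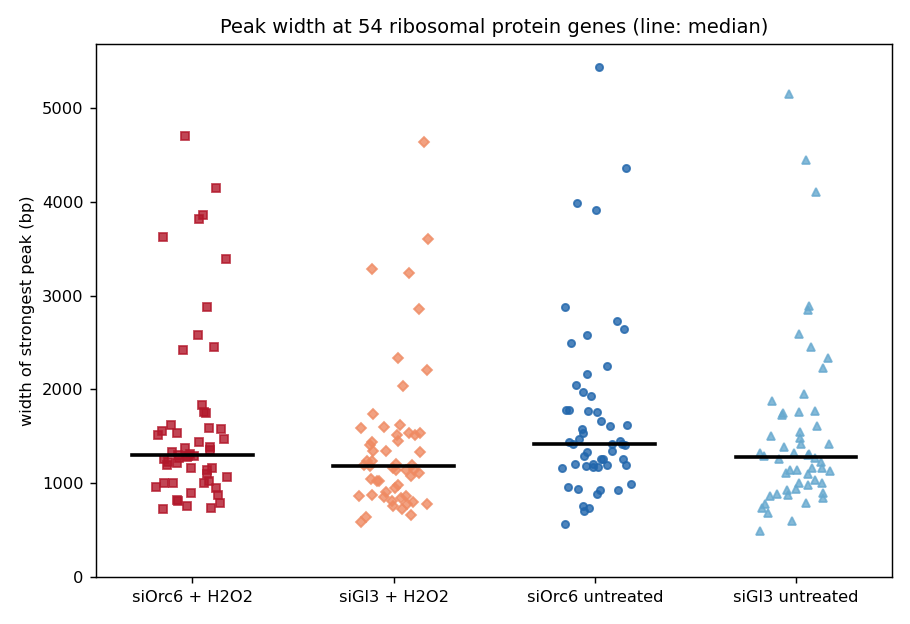
Width in bp (vertical axis) of the strongest peak at 54 ribosomal protein genes in each of the 4 peak lists. Points are genes and lines are medians, which lie between 1185.5 bp in siGl3 with H2O2 and 1417 bp in siOrc6 untreated.

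Part of the variation in width came with peaks that were listed whole in some conditions and in pieces in others. RPL13, a large-subunit protein, had a start peak of 2585 bp in siOrc6 with H2O2, 2583 bp in siOrc6 untreated and 2592 bp in siGl3 untreated. In siGl3 with H2O2 the same ground held peaks of 930 and 1339 bp, and the percentile of the stronger was 93.5, against 99.2, 99.4 and 99.4 in the whole forms. RPL19, a large-subunit protein that takes part in a bridge between the subunits, had peaks of 1231 bp in siOrc6 with H2O2, 1077 bp in siGl3 with H2O2 and 1222 bp in siGl3 untreated, but peaks of 565 and 566 bp in siOrc6 untreated, where its percentile was 67.7 against 85.0, 82.6 and 81.3 elsewhere. At RPL8 the strongest peak of untreated siGl3 (chr8:144785907-144788801, 2895 bp) was not the one that led in the other lists, which measured 3628, 3247 and 3910 bp. It lay outside the gene and only its edge reached the 1 kb flank, and on the ground of the other leads the siGl3 untreated list held weaker peaks of 384 and 2726 bp. RPS12 was likewise in pieces in siOrc6 with H2O2 (482 and 1390 bp), RPL22 in siGl3 untreated (888 and 150 bp) and RPL32 in every list but siOrc6 with H2O2. In a pair of lists, the lead of one list overlapped at least 2 peaks of the other at 5 genes for siOrc6 against siGl3 untreated, 6 with H2O2, 5 for H2O2 against untreated in siGl3 and 6 in siOrc6. The leads did not overlap at 2, 2, 2 and 4 genes, where a different peak led. Width and percentile differences at these genes turn on where peaks were broken or on which peak led, so the medians below are also given over the genes whose leads matched 1 to 1, a setting chosen after the data were seen.

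For 47 of the genes the RefSeq promoter table gives an annotated start, while RPL5, RPL7, RPL8, RPL23, RPL23A, RPL30, RPL37, RPS2 and RPS20 are not in it. At the 8 genes with several annotated starts, the start peak was the strongest peak over any of them. Distances at these genes are from the first listed start that this peak covered. At RPL6 that start (chr12:112409285) lay inside the gene, whose strongest peak lay at its 5′ end. Of the 47, 45 had a peak over the start in every list, and RPS9 and RPS18 had none. The start peak was the strongest of the window at 42, 42, 39 and 41 of these 45 genes in siOrc6 with H2O2, siGl3 with H2O2, siOrc6 untreated and siGl3 untreated. Its summit lay upstream of the start at 38, 42, 40 and 40 of them, with a median position of -113, -99, -105 and -112 bp, against -73, -70, -73 and -74 bp at other genes' start peaks of like rank. Summits within 200 bp of the start made up 80.0%, 80.0%, 84.4% and 75.6%, against 72.5%, 74.2%, 69.5% and 70.9% at other genes. The start peaks leaned upstream: they reached a median of 642, 617, 706 and 673 bp before the start and 557, 527, 623 and 531 bp into the gene. Peaks of like rank at other genes reached 600, 550, 651 and 598 bp before the start and 695, 613, 704 and 609 bp into the gene. Like rank means the same band of 1 percentile point, with each band weighted by its number of ribosomal protein genes.

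**Figure D3:**
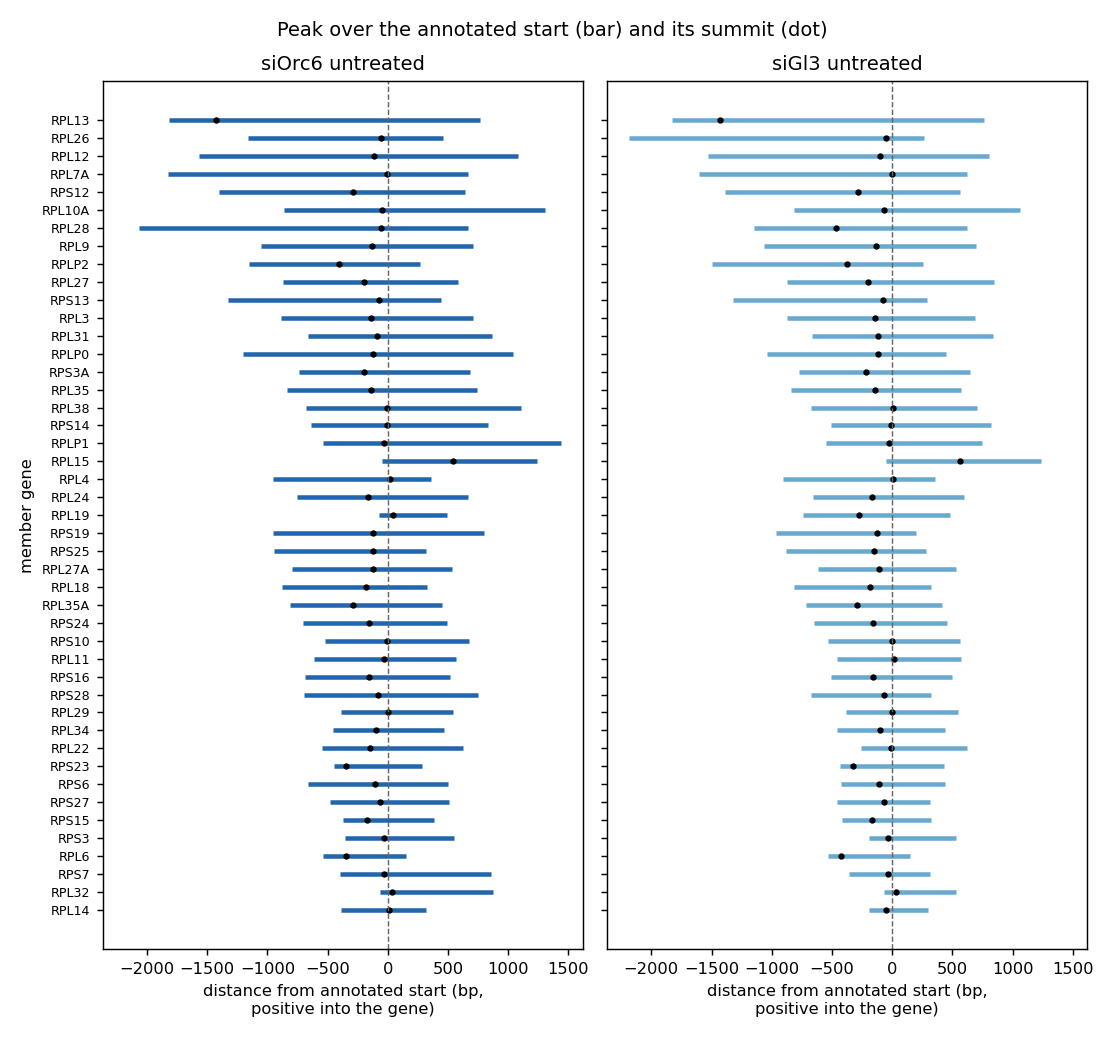
Peak over the annotated start at 45 ribosomal protein genes in siOrc6 untreated (left) and siGl3 untreated (right); bars run from peak start to peak end and dots mark summits, as distance from the start in bp along the gene. Rows have the same order in both panels, and summits lie before the start at 40 genes in each panel.

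Single genes stood apart from this layout. RPL15, a large-subunit protein, had its summit inside the gene, with peaks of 1290, 1437, 1289 and 1285 bp. The summit lay 551, 551, 545 and 559 bp past the first listed of 3 annotated starts. RPLP2, one of the acidic stalk proteins that recruit elongation factors, had its summit at -407, -413, -407 and -379 bp, upstream in every list. The RPL13 summit moved between -1429 bp in siOrc6 untreated and -1427 bp in siGl3 untreated on one side and 25 bp in siOrc6 with H2O2 and -51 bp in siGl3 with H2O2 on the other. RPL13 also has 3 annotated starts, and its distances are from the first listed. RPS12, a small-subunit protein, kept a summit at -286 bp in every list but siGl3 with H2O2, where it lay at -133 bp.

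Another gene started within 1 kb on the opposite strand at 10 of the genes, from 80 bp away (RPL12 and LRSAM1) to 471 bp away (RPL4 and ZWILCH). At the 9 of them with peaks, the start peak reached a median of 801, 726, 879 and 837 bp upstream in siOrc6 with H2O2, siGl3 with H2O2, siOrc6 untreated and siGl3 untreated. At the 36 genes with no such neighbour it reached 603, 553.5, 662.5 and 602 bp. The divergent genes thus had the longer upstream side in each list, and RPS18, whose start lies 110 bp from that of VPS52, is the divergent gene that had no peak.

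In promoter letters, the widest gap to other genes was at the start itself. Over the promoter table, from 250 bases before to 50 after the start, a TOP-like start was found at 36 of 47 genes (76.6%), against 11.1% of 15811 protein-coding promoters. The first transcribed base was C at 37 of the 47 (78.7%), against 11.3% of all. CCGGAAG was found in 17 (36.2% against 14.2%) and AAGATGGCG, a core bound by YY1, in RPL24, RPL35A and RPS28 (6.38% against 2.74%), each searched on both strands. GGGCGG was found in 28 (59.6% against 58.5%), GCGCATGC, bound by NRF1, in 2 (4.26% against 4.26%), and CACGTG, the E-box, in 2 (4.26% against 8.87%). TATAAA on the gene's own strand was found in RPLP0 and RPS28 (4.26% against 6.92%). The motifs were counted separately and may overlap. Median GC content was 58.33% (39.67% to 72.33%), against 62.67% over all promoters, and CpG stood at a median of 8.333 per 100 bases against 7.333. For genes with several annotated starts, letters were read at the first listed start only. The lowest GC content was that of RPL6, read at a start inside the gene (chr12:112411442).

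**Figure D4:**
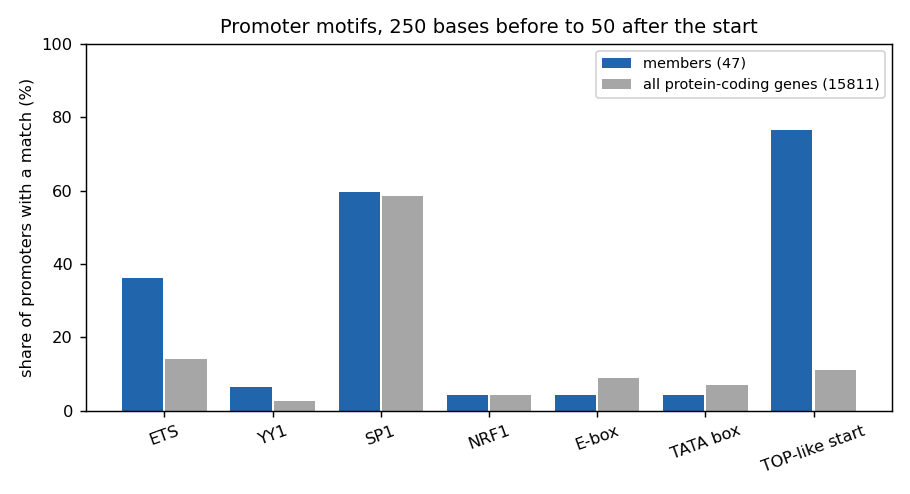
Share of promoters, in percent, with at least 1 match to each motif, for 47 ribosomal protein genes and for 15811 protein-coding genes. The TOP-like start (76.6% against 11.1%) and the ETS core (36.2% against 14.2%) show the widest gaps.

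Within the group, these letters did not go with higher ranks. Start peaks of the 16 genes with CCGGAAG had median percentiles of 90.9, 90.7, 91.1 and 90.4 in siOrc6 with H2O2, siGl3 with H2O2, siOrc6 untreated and siGl3 untreated, against 92.5, 92.7, 94.3 and 93.3 for the 29 without it. The 34 genes with a TOP-like start had 92.2, 92.2, 93.3 and 92.3, against 95.1, 93.5, 95.9 and 95.4 for the 11 without. Both sets with the motif had the lower median in each list.

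The authors' lists of regions that differed between siOrc6 and siGl3 were overlapped with the genes. Regions called higher in siOrc6 without H2O2 overlapped RPS7, RPL30 and RPL26, which makes 3 of the 54 genes with a peak. The same was true of 18.6% of all protein-coding genes with a peak in the same window, and of 9.59% when both had to lie within 1 kb of a gene end. None of the 54 overlapped a region called lower in siOrc6 without H2O2, where the background was 12.5% over the gene window and 1.33% at gene ends. With H2O2, none overlapped a region called higher (2.61% over the gene window, 0.339% at gene ends) or lower (3.83% and 0.276%). Genes differ in length, and the ribosomal protein genes are short, so the gene-end shares are the closer background. Among other genes' strongest gene-end peaks of like rank, 6.20% overlapped a region called higher without H2O2 and 0.452% one called lower. With H2O2 these shares were 0.144% and 0.0261%. The count of 3 of 54 thus lay near the share of like rank.

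At RPS7 the region called higher (chr2:3574862-3576115, 1254 bp) covered the annotated start and matched the siOrc6 untreated peak. The RPS7 peak was 1212 bp wide in siOrc6 with H2O2, 661 bp in siGl3 with H2O2, 1253 bp in siOrc6 untreated and 679 bp in siGl3 untreated. The wider form in both siOrc6 lists extended into the gene: the peak ended at position 3576103 and 3576115 in the siOrc6 lists with and without H2O2, against 3575576 and 3575578 in the siGl3 lists. The added ground lies downstream of the printed promoter, and the upstream ends of the 4 peaks lay between 3574863 and 3574916. With H2O2 the widths differed to a like extent, but no region was called there.

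At RPL30, a large-subunit protein whose gene hosts the small nucleolar RNA SNORA72, the region called higher (chr8:98045225-98046401, 1177 bp) also matched the siOrc6 untreated peak. Here the widths hardly differed, at 1141 bp in siOrc6 with H2O2, 1145 bp in siGl3 with H2O2, 1176 bp in siOrc6 untreated and 1145 bp in siGl3 untreated. The percentile was 84.5, 83.5, 86.9 and 81.9 in those lists, highest in the list that the call concerned.

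RPL26, a large-subunit protein that also promotes translation of p53 mRNA, was overlapped by 2 regions called higher. The first (chr17:8382737-8385415, 2679 bp) covered its start. The peak over the start measured 1283 bp in siOrc6 with H2O2, 1105 bp in siGl3 with H2O2, 1620 bp in siOrc6 untreated and 2451 bp in siGl3 untreated, so siGl3 untreated had the widest form although the region was called higher in siOrc6. The siGl3 untreated peak ran without a break to 8385380, whereas the siOrc6 untreated list held on the same ground the peak of 1620 bp and, further upstream, one of 778 bp that ended at 8385415. The second region (chr17:8375561-8377014, 1454 bp) lay at the other end of RPL26 and also within 1 kb of KRABD2. The peak there stood at percentile 83.8, 79.2, 88.8 and 83.5 and measured 1278, 667, 1180 and 1045 bp, with siOrc6 above siGl3 under either treatment.

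Beyond the 1 kb flanks, regions called higher without H2O2 lay 1099 bp from RPL12 (725 bp long) and 1679 bp from RPL19 (2317 bp long), and a region called higher with H2O2 lay 2539 bp from RPS19 (737 bp long). The region near RPL12 held a peak in siOrc6 untreated only, of 724 bp at percentile 37.5, and the one near RPS19 a peak in siOrc6 with H2O2 only, of 736 bp at percentile 27.5. The median distance from a gene to the nearest region without H2O2 was 87893.5 bp for those called higher and 196197 bp for those called lower. With H2O2 it was 981269.5 bp and 498004.5 bp. These distances depend on how many regions each list holds and were not set against those of other genes.

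The siOrc6 and siGl3 lists of untreated cells were compared first, as a description of the lists. The strongest peak was wider in the siOrc6 list at 44 of 54 genes (81.5%) and narrower at 10, with a median difference of 149 bp. Among 7089 gene-end peaks of like rank in siGl3 at other genes, 75.6% were wider, with a median of 58 bp. Here and in the comparisons below, the numbers of others count distinct peaks, and their shares are weighted by band. The means lay closer together, at 172.9 bp for the ribosomal protein genes and 147.9 bp for the others. Of the 45 start peaks, 40 (88.9%) reached further into the gene in siOrc6, against 70.6% at other genes of like rank, with a median of 32 bp against 17 bp. On the upstream side 60.0% reached further, against 68.2%, with a median of 15 bp against 14 bp. The width of the start peaks differed by a median of 149 bp too, against 60 bp at other genes. The percentile was higher in siOrc6 at 41 genes (75.9% against 56.4%), with a median difference of 0.55 points against 0.13.

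The largest width differences were at RPL8 (3910 bp in siOrc6, 2895 bp in siGl3), where a different peak led, at RPL28 (2735 bp and 1769 bp) and at RPLP0, the base of the acidic stalk (2248 bp and 1485 bp). In the opposite direction stood RPL26 (1620 bp and 2451 bp), RPL19 (565 bp and 1222 bp) and RPLP2 (1418 bp and 1751 bp). At RPL19, RPL26 and RPLP2 the siOrc6 list held the peak in pieces, and at RPL28 the siGl3 list did. Over the 47 genes whose leads matched 1 to 1, the siOrc6 peak was wider at 40 and narrower at 7, with a median difference of 149 bp, and its percentile was higher at 38, with a median of 0.60 points. In percentile the differences ran from -13.5 points at RPL19 to 12.9 points at RPL32, with RPS7 (77.3 in siOrc6, 70.0 in siGl3) and RPS15 (77.6 and 72.2) next to RPL32 and RPL26 (93.2 and 95.8) and RPL34 (86.6 and 87.7) next to RPL19.

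**Figure D5:**
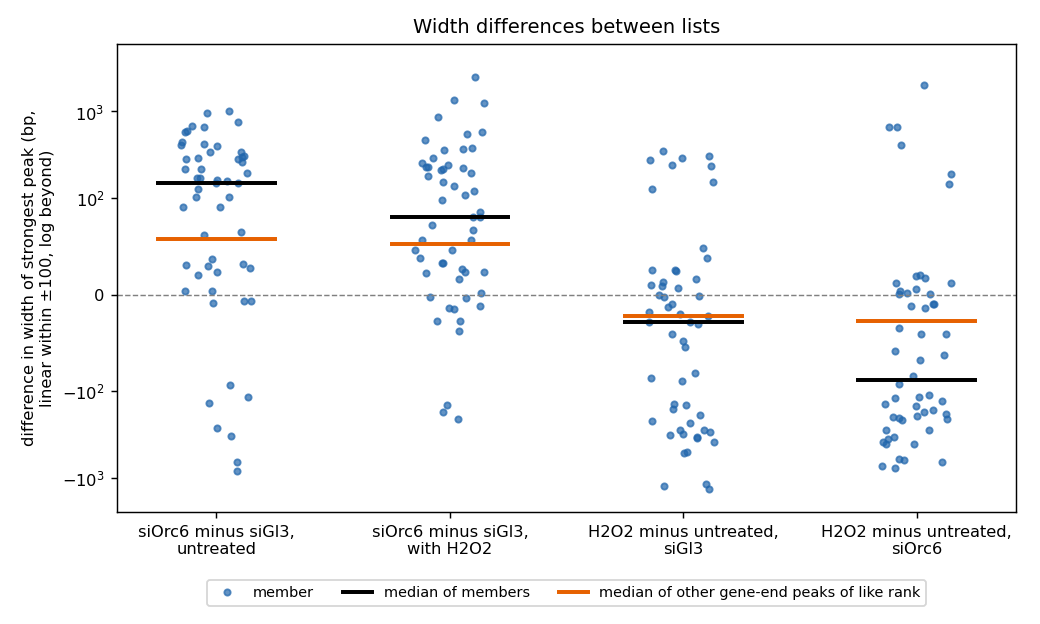
Difference in width of the strongest peak (vertical axis, bp, linear within 100 bp of 0 and logarithmic beyond) at 54 ribosomal protein genes in 4 comparisons of lists. Points are genes, black lines their medians (149, 81, -28 and -88.5 bp from left to right) and orange lines the medians of other genes' gene-end peaks of like rank (58, 53, -22 and -27 bp).

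With H2O2, the siOrc6 list again had the wider peak at most genes, 43 of 54 (79.6% against 74.8% of 8059 others of like rank), with a median difference of 81 bp against 53 bp. The mean difference was 216.3 bp against 129.8 bp. The percentile was higher in siOrc6 at 33 (61.1% against 45.1%), with a median of 0.25 points against -0.09. That median was smaller, at 0.10 points, over start peaks, and 0.09 points over the 46 genes whose leads matched 1 to 1, of which 36 were wider and 10 narrower in siOrc6, with a median of 62 bp. Start peaks reached further into the gene at 73.3% (68.7% of others) and further upstream at 75.6% (68.6%). The largest gains in width were at RPL38 (3822 bp in siOrc6, 1333 bp in siGl3), RPL28 (3395 bp and 2042 bp) and RPL13 (2585 bp and 1339 bp). At RPL38 the siOrc6 lead lay on the 3′ side of the gene (chr17:74211319-74215140) and the siGl3 lead over the start, where the siOrc6 peak measured 1393 bp. RPL28, a large-subunit protein, was wider in siOrc6 than in siGl3 under either treatment with its start peak as the lead in all 4 lists. The siGl3 list held the RPL28 and RPL13 peaks in pieces. The narrowest in siOrc6 relative to siGl3 were RPS12 (1390 bp and 1603 bp, in pieces in siOrc6), RPL22 (1021 bp and 1198 bp) and RPL15 (1290 bp and 1437 bp). RPS12 (91.3 and 94.2), RPS3A (89.5 and 92.2) and RPL22 (87.0 and 89.0) also had the largest shifts to a lower percentile, while RPL32 (79.7 and 66.9, in pieces in siGl3), RPS7 (76.9 and 65.7) and RPL13 (99.2 and 93.5) had the largest to a higher one.

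Within siGl3, the control siRNA, the H2O2 list was compared with the untreated list. The H2O2 list had the wider peak at 18 genes and the narrower at 35, with 1 equal, which makes 33.3% wider against 40.2% of 7089 others of like rank. The median difference was -28 bp against -22 bp, and the mean -126.5 bp against 10.4 bp. The largest narrowing was at RPL26 (1105 bp with H2O2, 2451 bp untreated) and RPL13 (1339 bp and 2592 bp), both with a peak broken in the H2O2 list, and RPS2 followed (3283 bp and 4452 bp). The largest widening was at RPL8 (3247 bp and 2895 bp), where a different peak led, and at RPL22 (1198 bp and 888 bp, in pieces untreated). Over the 47 genes whose leads matched 1 to 1, 15 were wider and 31 narrower, with the same median of -28 bp. The percentile was higher with H2O2 at 21 genes (38.9% against 55.1%), with a median difference of -0.43 points against 0.13. It was -0.00094 points when peaks were ranked by the authors' −log10 p, -0.19 points over start peaks and -0.33 points over leads matched 1 to 1. RPS15 (80.6 with H2O2, 72.2 untreated) and RPL14 (77.6 and 71.5) had the largest shifts to a higher percentile, and RPL13 (93.5 and 99.4) and RPS7 (65.7 and 70.0) the largest to a lower one.

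In siOrc6, the H2O2 list had the wider peak at 16 genes and the narrower at 38 (29.6% wider against 37.8% of 7333 others of like rank), with a median difference of -88.5 bp against -27 bp. The mean difference was -83.1 bp against -9.07 bp. Start peaks reached further into the gene with H2O2 at 28.9% (42.8% of others), with a median of -25 bp against -3 bp. RPLP0 (1473 bp with H2O2, 2248 bp untreated) and RPL23A (4703 bp and 5438 bp) had the largest narrowing, and RPL38 (3822 bp and 1782 bp, a different lead) and RPL19 (1231 bp and 565 bp, in pieces untreated) the largest widening. The median was -47 bp over start peaks and -101.5 bp over the 44 genes whose leads matched 1 to 1, of which 10 were wider and 34 narrower. The percentile was higher with H2O2 at 15 genes (27.8% against 48.3%), with a median of -0.68 points against -0.02. RPS3, a small-subunit protein with a described role in base excision repair, stood at 82.6 with H2O2 and 87.5 untreated, and RPS10, a small-subunit protein of the mRNA entry side, at 82.7 and 86.7. At RPS3 the lead with H2O2 was the start peak, and the lead untreated was the peak at chr11:75418693-75419573 near the other end of the gene. In the opposite direction stood RPL19 (85.0 and 67.7) and RPS15 (82.3 and 77.6).

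These 4 comparisons share lists, since each list enters 2 of them, and are not independent of one another. The lists also differ in length, which moves percentiles by itself. When the signal was ranked among the 80119 regions listed in all 4 conditions, a setting chosen after the data were seen, the median difference was 1.27 points for siOrc6 against siGl3 untreated (higher at 47 of 54 genes, 87.0% against 64.0% of others of like rank) and 0.64 points with H2O2 (40 genes, 74.1% against 57.2%). For H2O2 against untreated it was 0.39 points in siGl3 (34 genes, 63.0% against 69.0%), which turns the sign given above, and -0.12 points in siOrc6 (24 genes, 44.4% against 66.8%). The direction of the percentile difference with H2O2 in siGl3 thus differed with the way ranks were taken, and the cause was not tested. No p-value can be given for any of these shares.

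The genes can be followed by what their proteins do, in groups formed after the values were seen. The acidic stalk, which binds translation factors, is built from RPLP0, RPLP1 and RPLP2 on a base shared with RPL12. RPLP0 measured 1473 bp in siOrc6 with H2O2, 1511 bp in siGl3 with H2O2, 2248 bp in siOrc6 untreated and 1485 bp in siGl3 untreated. RPLP1 measured 1622, 1536, 1978 and 1297 bp, and RPL12 2453, 2333, 2645 and 2335 bp. These 3 genes had their widest peak in siOrc6 untreated, as did 31 of all 54 genes, so the trait was not particular to the stalk. RPLP2, at 1829, 1588, 1418 and 1751 bp, had its narrowest there. The RPLP1 peak was in pieces in siOrc6 with H2O2 (1622 and 522 bp), and the RPLP2 peak in siOrc6 untreated and siGl3 with H2O2.

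RPL5 and RPL11, which join 5S rRNA and can bind MDM2 when ribosome assembly is disturbed, each had a single peak in every list. RPL5 measured 1167, 1028, 1334 and 1311 bp in siOrc6 with H2O2, siGl3 with H2O2, siOrc6 untreated and siGl3 untreated, and RPL11 1006, 1018, 1180 and 1031 bp. RPL23, another MDM2 partner, measured 1006, 984, 1411 and 985 bp. These 3 had their widest peak in siOrc6 untreated, as did 31 of all 54 genes, and overlapped no region called changed. In siOrc6 with H2O2 the RPL23 peak was in pieces, with 443 bp beside it. The other MDM2 partners named above, RPS7 and RPL26, did overlap regions called higher. RPS7 was also widest in siOrc6 untreated, at 1253 bp, while the start peak of RPL26 was widest in siGl3 untreated.

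Among genes of Diamond-Blackfan anaemia, RPS19 measured 1744 bp in siOrc6 with H2O2, 1452 bp in siGl3 with H2O2, 1758 bp in siOrc6 untreated and 1160 bp in siGl3 untreated. RPS24 measured 790, 805, 1196 and 1105 bp, and RPL35A 1271, 1049, 1259 and 1130 bp. RPS19 and RPL35A were wider in siOrc6 than in siGl3 under either treatment, as was RPL5. RPS24 and RPL11 were wider in siOrc6 when untreated but narrower with H2O2 (790 bp against 805 bp, and 1006 bp against 1018 bp). Of all 54 genes, 44 untreated and 43 with H2O2 were wider in siOrc6, so the trait was not particular to this group. RPS24, RPL5 and RPL11 were narrower with H2O2 than without under either siRNA, as were 35 of the 54 genes in siGl3 and 38 in siOrc6. RPS6, the small-subunit protein phosphorylated by S6 kinases, measured 1103, 876, 1162 and 863 bp, with siOrc6 above siGl3 under either treatment.

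Small nucleolar RNAs, which guide modification of rRNA and are processed from introns, are encoded inside 20 of the 56 genes (35.7%, 41 small nucleolar RNA genes), against 2.63% of all protein-coding genes. RPL3, RPL4, RPL7A and RPL23A each host 4. The 20 host genes had median widths of 1484.5 bp in siOrc6 with H2O2, 1343 bp in siGl3 with H2O2, 1719.5 bp in siOrc6 untreated and 1517.5 bp in siGl3 untreated. The 34 others with a peak had 1277, 1150.5, 1276 and 1159.5 bp. Host genes also had the higher median percentile, at 94.2, 93.9, 94.8 and 94.2 against 91.9, 92.0, 91.9 and 90.5. These values are of the strongest peak in the window, which need not lie at the promoter. In the lists named above it lay wholly outside the gene at the hosts RPL3, RPL23A and RPS2. The same held at RPL38, RPL19 and RPL8 among the others. Start peaks were not compared between hosts and others.

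Other genes of the ribosome and of translation were counted in the same way. All 23 further cytosolic ribosomal protein genes had a peak in the 4 lists, and RPL41 and RPS29 were among those that overlapped a region called higher in siOrc6 without H2O2. Of 8 paralogues found in the annotation, all had a peak and RPL22L1 overlapped such a region. Of 77 genes for mitochondrial ribosomal proteins, 74 had a peak in all 4 lists and MRPL23, MRPL45 and MRPS18B in none, the last of these inside the stretch that also holds RPS18. A total of 10 overlapped a region called higher without H2O2, MRPL1, MRPL11, MRPL13 and MRPL28 among them, and MRPS28 overlapped regions called lower both with and without H2O2. Of 19 translation factors and other genes with TOP mRNAs, 18 had a peak, EEF1G and VIM overlapped a region called higher and EIF3H one called lower without H2O2. Of 38 ribosome biogenesis genes, 37 had a peak, EFL1, EIF6, TSR1 and UBTF overlapped a region called higher and RRP12 one called lower. The background for these counts is the 18.6% called higher and 12.5% called lower without H2O2, and the 3.83% called lower with it, given above.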

How the data were processed

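ATAC-seq libraries were made from U2OS cells in 4 conditions, 2 libraries each. The submitters' processing notes name build hg38 and the tools Genrich, edgeR, Bowtie2, SAMtools, Picard, deepTools and bcl2fastq 2.20. Not given in the sources used here are their roles, thresholds, duplicate handling and any shift of cut positions. For each condition the authors deposited 1 peak list, named with both replicate numbers, which gives a display score (not used), a peak signal, −log10 p-values and −log10 q-values, and a summit offset. The deposited changed-region lists give positions only, with starts 1 bp before those of matching peaks, and no fold or p-value.

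Peaks on chromosomes 1 to 22 and X were kept (147 to 168 per list left out). A gene's strongest peak was the one with the highest signal among peaks overlapping the RefSeq span with 1 kb on each side by at least 1 bp. Other genes' peaks of like rank came from the same band of 1 percentile point in the second list of a comparison. Positions were 1-based. Lookups were tested on simulated data. Tables were handled with pandas 2.3.3 and numpy 2.4.6 in Python 3.11.15, intervals computed with scipy 1.17.1 and figures drawn with matplotlib 3.10.9.

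Members and gene lists were chosen with earlier results of these data known. The genes named are those at a changed region or lacking a peak, the 4 widest, narrowest, highest and lowest in untreated siGl3, and the most different in each comparison (3 per direction between siRNAs, 2 between treatments). Other members were named after their values were seen. Some genes of the marker and pathway lists are not reported here. No test was possible, since both libraries of a condition share 1 list.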

Additional observations from a re-analysis of the deposited data

How the results depend on the processing

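Of 92 recomputed values over 21 results, 86 were kept, 5 moved and 1 reversed. Kept means the same direction and a value within the 95% order-statistic interval of the reported median, or within 1.5 times a count. Counting shared strongest peaks once could not change a value, since no genes shared one. Taking only peaks within 1 kb of an end left each list's median percentile and median width unchanged. Such settings add little to the tally. Widening the flanks to 3 kb raised the genes at a region called higher in siOrc6 to 5 without H2O2, against 3, and to 1 with H2O2, against 0. The share over all protein-coding genes was not computed at 3 kb, so these raised counts have no background beside them. Ranking among regions listed in all 4 conditions, chosen after seeing the data, gave 1.27 points for siOrc6 against siGl3 untreated (0.55 reported), 0.64 with H2O2 (0.25), -0.12 for H2O2 against untreated in siOrc6 (-0.68) and 0.39 in siGl3, which reversed the -0.43 reported. That setting leaves out peaks not listed in all 4 conditions, and the cause was not tested further. That order-statistic interval takes genes as its units, not replicates, and is wide beside small medians. Within it, ranking by −log10 p gave -0.00094 points for H2O2 in siGl3 and 0.84 for siOrc6 against siGl3 untreated. Start peaks gave -0.19 points for H2O2 in siGl3, 0.10 for siOrc6 against siGl3 with H2O2 (0.09 over leads matched 1 to 1) and -47 bp for H2O2 in siOrc6, against -88.5 bp. Pairing by overlap gave -53 bp for H2O2 in siGl3, against -28 bp. No paired analysis was possible because each condition had 1 list made from both libraries, and leaving out each replicate was not run for the same reason. Depth is unknown and limits what narrow differences can show.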

Other observations

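Pseudogenes named after the ribosomal protein genes, mostly copies of spliced mRNAs without a promoter of their own, numbered 1288 in the annotation, with 95 for RPL23A alone. A peak overlapped 35 of them (2.72%) in siOrc6 with H2O2, 34 (2.64%) in siGl3 with H2O2, 42 (3.26%) in siOrc6 untreated and 39 (3.03%) in siGl3 untreated. Over all 16664 pseudogenes the shares were 6.56%, 6.44%, 7.09% and 6.89%. The handling of reads that match both a gene and its copies was not tested.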
